A study of Mus musculus with 10 samples.

Results

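The deoxynucleotide synthesis enzymes are 9 genes, Rrm1, Rrm2, Rrm2b, Tyms, Tk1, Dut, Dck, Dtymk and Samhd1, which make deoxynucleotides and thymidylate or clear them away, out of 45232 gene entries in the deposited table. They were chosen by name from their known roles, and all 9 were listed in the table and passed the minimum level for testing. The cells were mouse fibroblasts of the immortalized line NIH3T3, starved of serum, whose Lin37 gene had been disrupted with a Cas9 nickase. Lin37 is a subunit of MuvB, the core of the DREAM complex that represses cell-cycle genes in G0. Clone 411-27 carried InDels at exon 4 and clone 632-2 InDels at exon 6, each line being 1 single-cell clone, so that a difference between the exon 4 and the exon 6 clone cannot be told apart from a difference between any pair of clones.

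Both groups of each clone carried the Lin37 knockout together with a pRTS episome, a plasmid kept outside the chromosomes by hygromycin selection. Doxycycline switched on luciferase (KO) or wild-type Lin37 (rescue) from it, along with GFP by which the cells were sorted. Because the control is a re-expression from an episome, the rescue level of Lin37 is that of a transgene. All cells had been kept for 60 h in 0% serum. The exon 4 clone gave 2 KO and 2 rescue biological replicates. The exon 6 clone gave 3 KO and 3 rescue libraries, of which library 3 was a technical replicate of library 2 and was averaged with it, leaving 2 replicates of each group. Lin37 itself checked the labels. It lay at 0.274 to 0.417 RPKM in the 4 KO replicates and at 2.12 to 4.92 RPKM in the 4 rescue replicates. Re-expressed Lin37 differed by clone, with a rescue mean of 2.33 RPKM in the exon 4 and 4.84 RPKM in the exon 6 clone. The log2 change of Lin37 over both clones was -2.25 (SE 0.170, limma adjusted p = 0.000293). RPKM are reads scaled by gene length and by library total, and all levels below are RPKM rescaled between libraries by a median of ratios.

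Ribonucleotide reductase turns ribonucleotides into deoxynucleotides and is the rate-limiting step of their supply. Its large subunit Rrm1 pairs either with Rrm2, which is made in S phase, or with Rrm2b, which p53 induces and which serves cells outside S phase. Thymidylate reaches DNA along a de novo arm, in which Dut supplies dUMP and Tyms methylates it, and along a salvage arm, in which Tk1 phosphorylates thymidine. Dtymk carries the product of both arms on to the diphosphate. Dck salvages deoxycytidine and is less tied to the cell cycle, and Samhd1 breaks deoxynucleotide triphosphates down and keeps their pools low in resting cells. DREAM reaches early cell-cycle promoters mostly through E2F sites and late ones through the CHR, an element bound by the MuvB subunit Lin54.

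Promoter windows of 300 bases, from 250 bases before to 50 bases after the RefSeq start site on GRCm38.p6, were found for 8 of the 9 genes. The letters searched on both strands were TTTCCCGC, TTCCCGC, TTTGGCGC, TTTGGCGG and TTTCGCGC for E2F, of which the first contains the second, and TTTGAA and TTCGAA for the CHR. Of 32851 such windows in the genome, 5.76% held any of the E2F letters and 19.2% held either of the CHR letters. Among the members only Rrm1 held E2F letters, TTCCCGC from base -67 to -61 on the gene's strand, and 4.6% of all windows hold these 7 letters. Only Dck held CHR letters, TTTGAA from -245 to -240 on the opposite strand, and 17.9% of all windows hold them. A match is a description of these letters in this window and not a site, and Rrm2b is given by name only. The window of Dut (chr2:125247265-125247564, plus strand) lies wholly inside the gene as annotated, which starts at 125247190. The bases before that start were not searched.

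The 250 bases before the start site follow for the 2 reductase genes whose levels rose in the exon 6 clone, Rrm1 (chr7:102441445-102441694, plus strand) and Rrm2 (chr12:24708004-24708253, plus strand), and for 2 S-phase enzymes that did not pass the test, Tyms (chr5:30073626-30073875, minus strand) and Tk1 (chr11:117826015-117826264, minus strand). All are written 5′ to 3′ along the gene, from RefSeq on GRCm38.p6, and capitals mark the matched E2F letters. G and C made up 46.0% of the bases of Rrm1, 72.4% of Rrm2, 52.0% of Tyms and 49.6% of Tk1.
Rrm1: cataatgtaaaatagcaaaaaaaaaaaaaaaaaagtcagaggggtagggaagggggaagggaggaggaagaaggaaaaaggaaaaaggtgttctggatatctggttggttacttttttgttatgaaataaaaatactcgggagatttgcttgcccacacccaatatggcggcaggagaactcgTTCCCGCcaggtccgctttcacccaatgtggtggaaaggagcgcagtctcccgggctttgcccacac
Rrm2: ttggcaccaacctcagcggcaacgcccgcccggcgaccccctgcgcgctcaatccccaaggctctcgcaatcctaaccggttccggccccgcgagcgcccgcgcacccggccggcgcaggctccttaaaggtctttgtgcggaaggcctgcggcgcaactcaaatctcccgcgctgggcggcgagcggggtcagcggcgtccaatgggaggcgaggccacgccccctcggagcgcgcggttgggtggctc
Tyms: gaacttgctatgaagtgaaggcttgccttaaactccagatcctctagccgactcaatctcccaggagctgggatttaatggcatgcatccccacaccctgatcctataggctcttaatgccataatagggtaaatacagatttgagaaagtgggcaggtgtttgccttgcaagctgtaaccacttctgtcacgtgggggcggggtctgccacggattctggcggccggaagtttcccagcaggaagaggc
Tk1: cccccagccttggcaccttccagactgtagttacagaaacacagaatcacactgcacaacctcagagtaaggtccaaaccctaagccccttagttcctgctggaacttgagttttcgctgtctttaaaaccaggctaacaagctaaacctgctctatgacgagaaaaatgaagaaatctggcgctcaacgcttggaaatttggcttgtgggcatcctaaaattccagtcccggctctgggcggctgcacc

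Libraries differed in a background that bears on the low members. Olfactory receptor genes, which fibroblasts do not use, averaged between 0.00147 and 0.00392 RPKM over 1050 genes in 6 of the 10 libraries. In the other 4 the mean was higher, at 0.0673 RPKM in exon 4 KO replicate 2, 0.0311 and 0.103 RPKM in exon 4 rescue replicates 1 and 2, and 0.0462 RPKM in library 2 of the exon 6 rescue. The fibroblast genes Col1a1, Col1a2, Col3a1, Vim, Fn1, Pdgfrb, Thy1 and S100a4 summed to 470 to 765 RPKM in KO and 506 to 829 RPKM in rescue replicates. Of the defining markers of other cells, Krt5 was listed at 0 in 5 of 8 replicates and reached 0.0190 RPKM, and Epcam was at 0 in 2 and reached 0.184 RPKM. The summed level of Epcam, Cdh1 and Krt5 was 0.0173 to 0.421 RPKM in KO and 0.0565 to 0.485 RPKM in rescue, that of the endothelial genes Pecam1 and Cdh5 0.0107 to 0.120 and 0.0332 to 0.125 RPKM, and that of the leukocyte genes Ptprc and Cd68 0.674 to 1.36 and 0.676 to 0.956 RPKM. Ptprc was at most 0.0712 RPKM, so Cd68 made up nearly all of the leukocyte sum.

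To ask which of these enzymes depend on Lin37 in G0, KO was compared with rescue over both clones. Rrm1 rose, 8 of the 9 members had a positive log2 change, and Rrm2b had the only negative one. Of the 9 members, 1 was called higher and 0 lower, where 1.61% of 16866 genes were called higher and 0.083% lower (limma, adjusted p under 0.05, clone as a covariate). With replicate number as a block, 27 in place of 14 genes were called lower in all, and no call among the members changed. At an unadjusted p under 0.05, 4 of the 9 members differed, Rrm1, Rrm2, Dck and Samhd1, all higher in KO, beside 8.79% of all genes, 854 higher and 628 lower. The median log2 change of the members was 0.19, beside -0.03 over all genes tested. In such bulk RNA, a larger share of cycling cells and more RNA per cell cannot be told apart. All log2 changes are differences of log2(RPKM + 0.5), a scale that understates the change of genes far below 1 RPKM.

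**Figure D1:**
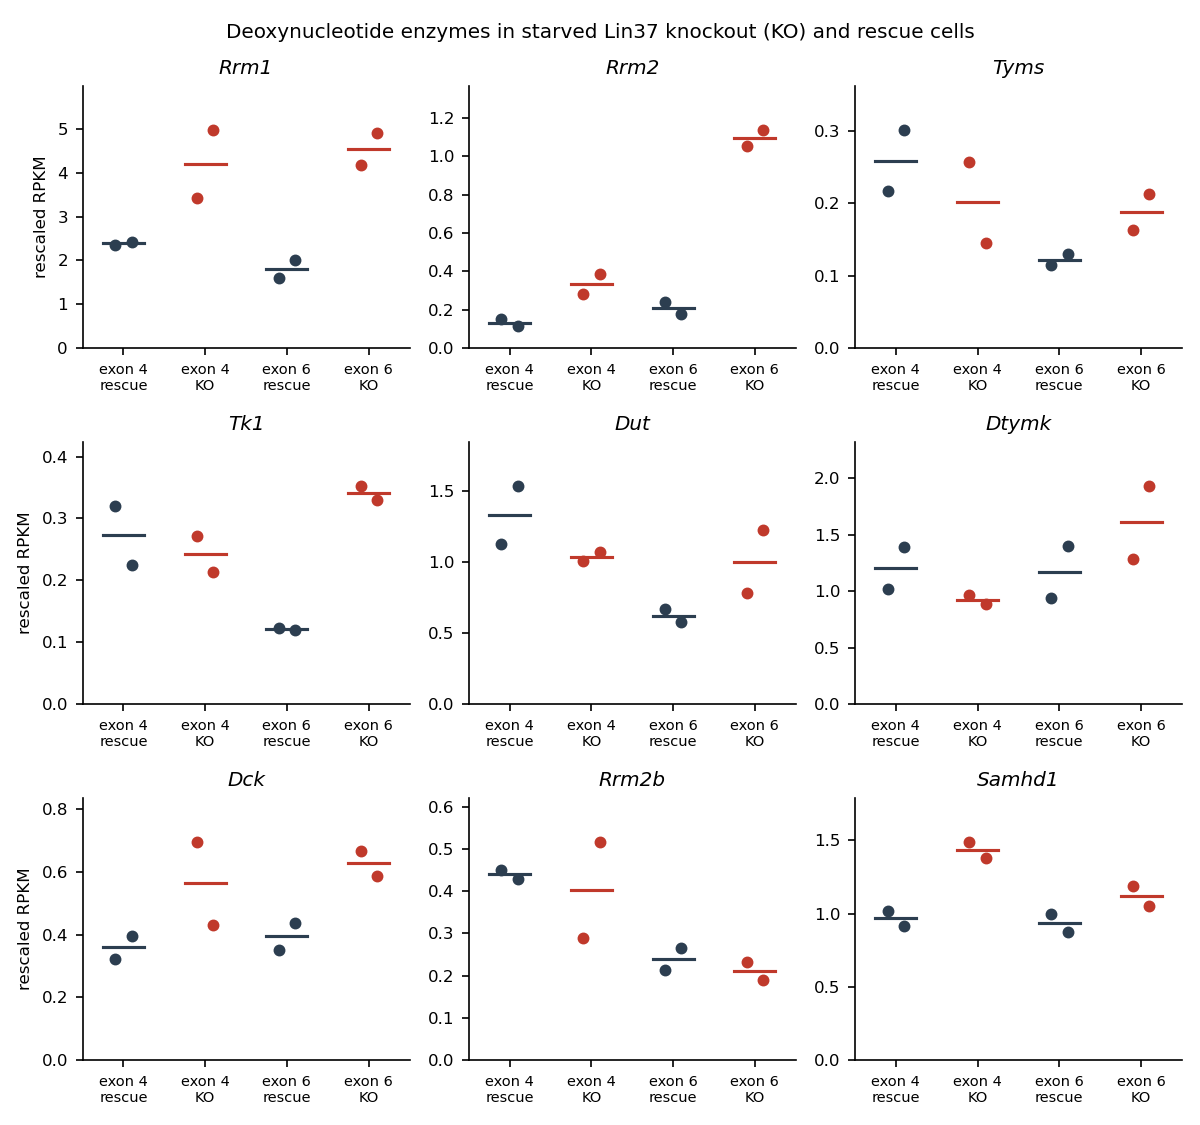
Level of each enzyme in rescaled RPKM (vertical axes, each from 0) in the 4 groups, with 1 point for each biological replicate, a line at the mean of the group, KO in red and rescue in dark blue. Every KO replicate of Rrm1, Rrm2 and Samhd1 lies above every rescue replicate, and the groups of the other 6 enzymes overlap.

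Rrm1, the large reductase subunit (ENSMUSG00000030978.9, GRCm38 chromosome 7, 102441695 to 102469771, plus strand), was the highest of the 9 in both groups. Its level was 3.44 and 4.98 RPKM in the exon 4 KO replicates and 2.35 and 2.43 RPKM in the exon 4 rescue replicates. The exon 6 KO replicates had 4.19 and 4.91 RPKM and their rescue counterparts 1.61 and 2.01 RPKM. The lowest KO replicate thus stood above the highest rescue replicate, and all 4 same-numbered pairs rose. Means were 4.38 ± 0.726 RPKM in KO and 2.10 ± 0.375 RPKM in rescue (SD, n = 4), a ratio of 2.09. The log2 change over both clones was 0.91 (SE 0.147, 95% interval 0.57 to 1.24, limma adjusted p = 0.0159). Without exon 4 KO replicate 2, exon 6 KO replicate 1 or 2, or exon 6 rescue replicate 1 or 2, the log2 change was 0.81 to 0.91 and adjusted p 0.0572 to 0.0811, so the call rested on each of these 5 replicates. Of all genes, 174 to 203 were called higher without 1 of the exon 6 replicates and 259 without exon 4 KO replicate 2. With every replicate 271 were called, so calls lost without an exon 6 replicate are not particular to Rrm1. The call of Rrm1 was also lost with no minimum level, at a limma adjusted p of 0.162.

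Rrm2, the small subunit that limits the reductase in S phase (ENSMUSG00000020649.8, chromosome 12, 24708241 to 24714146, plus strand), had the lowest mean of the 9 over the 4 rescue replicates. This order differed by clone, since in exon 6 rescue cells its mean of 0.209 RPKM was above those of Tyms (0.122) and Tk1 (0.121 RPKM). Its level was 0.284 and 0.384 RPKM in the exon 4 KO replicates and 0.153 and 0.113 RPKM in the exon 4 rescue replicates. Exon 6 KO cells had 1.06 and 1.14 RPKM, against 0.240 and 0.178 RPKM in exon 6 rescue cells. KO stood above rescue throughout, and the exon 6 KO replicates stood far above those of exon 4. Means were 0.716 ± 0.444 and 0.171 ± 0.0533 RPKM (SD, n = 4), a ratio of 4.19, which is the largest among the 9. Over both clones the log2 change was 0.79 (SE 0.163, 95% interval 0.41 to 1.16) and missed the threshold (limma adjusted p = 0.0603, and 0.106 with the replicate block). It passed with a pseudocount of 0.1, where the log2 change was 1.43 (adjusted p = 0.0250), and after quantile normalization, where it was 0.96 (adjusted p = 0.0167).

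The background matters most for this gene. In exon 4 rescue replicate 2, 0.113 RPKM of Rrm2 stood beside a mean of 0.103 RPKM of olfactory receptor genes. When each library's olfactory receptor level was subtracted from every gene, an alternative chosen after the data were seen, Rrm2 was 0.283 and 0.317 RPKM in the exon 4 KO and 0.122 RPKM and close to 0.01 RPKM in the exon 4 rescue replicates. It was then called over both clones (log2 change 0.85, limma adjusted p = 0.0316), and Rrm1 stayed called at 0.92 (adjusted p = 0.0112). Rrm2 also has processed copies. Of its 31-base stretches, 4.45%, 3.94%, 3.37% and 2.62% occur in the transcripts of Gm48455, Gm48445, Gm11485 and Gm6593, and the counting of reads shared with them is uncertain. Gm11485, the only one of the 4 found in the table, averaged 0.105 RPKM over the KO and 0.0270 RPKM over the rescue replicates.

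**Figure D2:**
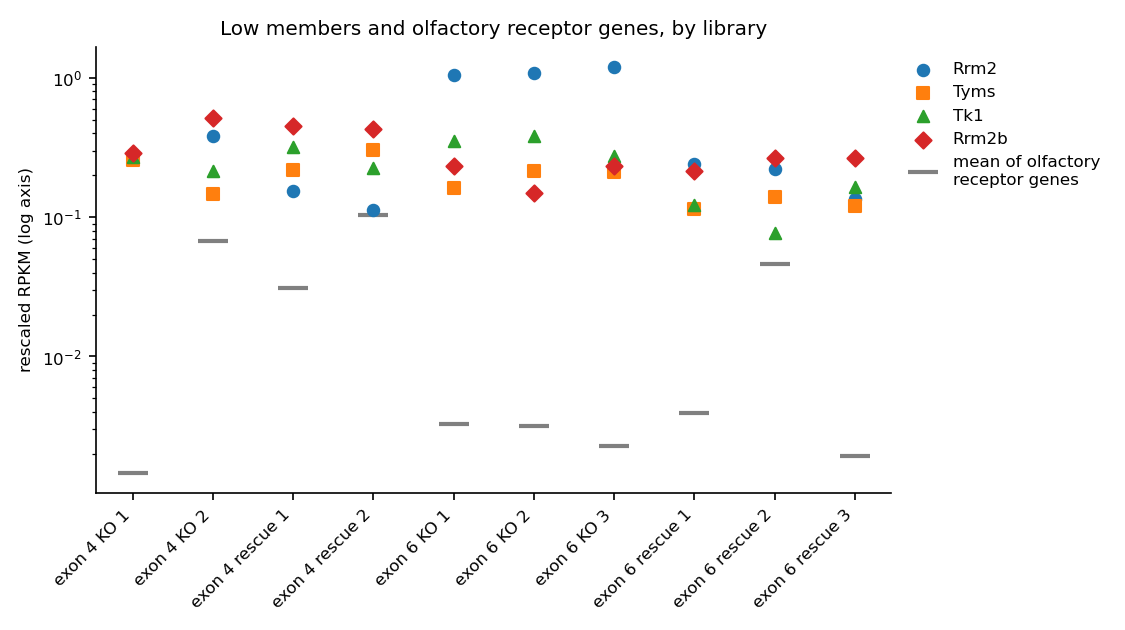
Rescaled RPKM (log axis) of Rrm2, Tyms, Tk1 and Rrm2b in each of the 10 libraries, and the mean of 1050 olfactory receptor genes in the same library (grey bars). In exon 4 rescue 2 the grey bar at 0.103 RPKM comes close to Rrm2 at 0.113 RPKM, and in the exon 6 KO libraries it lies between 0.00228 and 0.00325 RPKM while Rrm2 lies between 1.06 and 1.19 RPKM.

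The thymidylate enzymes did not pass the test over both clones. Tyms, the thymidylate synthase (ENSMUSG00000025747.9, chromosome 5, 30058202 to 30073617, minus strand), was at 0.257 and 0.146 RPKM in the exon 4 KO and 0.216 and 0.302 RPKM in the exon 4 rescue replicates. Exon 6 cells had 0.163 and 0.213 RPKM of Tyms as KO and 0.114 and 0.130 RPKM as rescue. The groups overlapped, and its log2 change was 0.01 with a 95% interval of -0.25 to 0.28. Of its 31-base stretches, 5.23% occur in the pseudogene Tyms-ps, 2.82% in Reep3 and 2.05% in Wdr59, and reads shared with them are uncertain. The same holds for Olfr338 (2.65%), Jakmip2 (2.45%), Vmn1r-ps144 (2.39%) and Cd200r3 (2.37%), whose means were at most 0.0608 RPKM. Reep3 (1.81 RPKM in KO and 2.04 in rescue) and Wdr59 (1.10 and 1.20 RPKM) were both above Tyms.

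Dut, the dUTPase that supplies dUMP and keeps uracil out of DNA (ENSMUSG00000027203.12, chromosome 2, 125247190 to 125258608, plus strand), lay at 1.01 and 1.07 RPKM in the exon 4 KO and at 1.13 and 1.54 RPKM in the exon 4 rescue replicates. The order of the groups was the other way round in exon 6 cells, with 0.779 and 1.22 RPKM in KO and 0.665 and 0.580 RPKM in rescue. Its log2 change over both clones was 0.08 (95% interval -0.30 to 0.46). Dtymk, the thymidylate kinase (ENSMUSG00000026281.12, chromosome 1, 93792576 to 93801934, minus strand), had 0.965 and 0.882 RPKM in the exon 4 KO and 1.02 and 1.39 RPKM in the exon 4 rescue replicates. Its exon 6 KO replicates had 1.28 and 1.93 RPKM and the exon 6 rescue replicates 0.939 and 1.39 RPKM. Its log2 change over both clones was 0.04 (95% interval -0.35 to 0.43).

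Tk1, the thymidine kinase of S phase (ENSMUSG00000025574.10, chromosome 11, 117815526 to 117826092, minus strand), overlapped between KO and rescue in the exon 4 clone and not in the exon 6 clone. Tk1 stood at 0.271 and 0.214 RPKM in the exon 4 KO and 0.320 and 0.225 RPKM in the exon 4 rescue replicates. Levels in exon 6 cells were 0.353 and 0.330 RPKM for KO and 0.123 and 0.120 RPKM for rescue, a ratio of means of 2.81. The mean of the exon 4 rescue was 2.25 times that of the exon 6 rescue, beside 2.12 times for Tyms and 2.14 times for Dut. With the olfactory receptor level subtracted these ratios were 1.91, 1.78 and 2.08, and no test of them was made. Over both clones the log2 change of Tk1 was 0.19 (SE 0.128, limma adjusted p = 0.745). An exon of Afmid on the opposite strand covers 83 bases, or 1.6%, of the exons of Tk1, and whether the counting used strand is not given in the sources used here.

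Dck, the deoxycytidine kinase (ENSMUSG00000029366.10, chromosome 5, 88764996 to 88783281, plus strand), had 0.696 and 0.430 RPKM in the exon 4 KO and 0.323 and 0.395 RPKM in the exon 4 rescue replicates. With InDels at exon 6, KO cells had 0.666 and 0.587 RPKM and rescue cells 0.352 and 0.438 RPKM. Within each clone KO stood above rescue, and over both clones the lowest KO replicate fell just below the highest rescue replicate. Its log2 change was 0.32 (SE 0.109, limma adjusted p = 0.372). Its log2 change was 0.30 in exon 4 and 0.33 in exon 6 cells, and the difference of 0.04 had a 95% interval of -0.50 to 0.57.

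The constitutive or p53-induced enzymes also did not pass the test. Rrm2b, the alternative small subunit (ENSMUSG00000022292.12, chromosome 15, 37923952 to 37961318, minus strand), was 0.289 and 0.517 RPKM in the exon 4 KO and 0.449 and 0.430 RPKM in the exon 4 rescue replicates. Both exon 6 groups were lower, with 0.232 and 0.190 RPKM for KO and 0.214 and 0.266 RPKM for rescue. Neither clone separated KO from rescue, and the log2 change of -0.06 had a 95% interval of -0.31 to 0.19. An antisense transcript, Gm49085, overlaps 734 bases or 8.04% of the Rrm2b exons, so reads of the pair cannot be told apart if strand was not used.

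Samhd1, the deoxynucleotide triphosphohydrolase (ENSMUSG00000027639.13, chromosome 2, 157097533 to 157135265, minus strand), was 1.49 and 1.38 RPKM in the exon 4 KO and 1.02 and 0.919 RPKM in the exon 4 rescue replicates. The exon 6 replicates had 1.19 and 1.05 RPKM as KO and 0.995 and 0.877 RPKM as rescue. All 4 KO replicates stood above all 4 rescue replicates, with means of 1.28 ± 0.196 and 0.952 ± 0.0653 RPKM (SD, n = 4), a ratio of 1.34. The log2 change of 0.29 (SE 0.0934, 95% interval 0.08 to 0.50) missed the threshold over all genes (limma adjusted p = 0.316). Samhd1 was 1 of 3 members, with Rrm1 and Rrm2, whose KO replicates all stood above the rescue replicates, an order held by 3.11% of all genes tested. No member had all KO replicates below the rescue replicates, which 1.4% of all genes did.

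Since RPKM are per length, the levels can be set in order across the enzymes. Shared reads and the background leave the order of the low ones uncertain. In the rescue, Rrm1 led with 2.10 RPKM and stood apart from Dtymk (1.19), Dut (0.977) and Samhd1 (0.952 RPKM), whose replicates overlapped from one to the next. Dck (0.377) stood apart below Samhd1, and Dck, Rrm2b (0.340), Tk1 (0.197), Tyms (0.190) and Rrm2 (0.171 RPKM) again overlapped with their neighbours. In KO only Rrm1, with 4.38 RPKM, stood apart from the next, and from Samhd1 (1.28 RPKM) down to Tyms (0.195 RPKM) every neighbour overlapped.

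When the clones were tested alone, Rrm1 and Rrm2 rose in the exon 6 clone, and no member passed in the exon 4 clone. For the exon 6 cells, 2 of 9 members were called higher and 0 lower, where 1.24% of 15301 genes were called higher and 0.0654% lower. The log2 change of Rrm1 was 1.13 (SE 0.142, 95% interval 0.77 to 1.49, limma adjusted p = 0.0370) and that of Rrm2 1.17 (SE 0.114, 95% interval 0.89 to 1.46, adjusted p = 0.0183). In terms of mean RPKM, Rrm1 was 2.51 times and Rrm2 5.26 times as high in KO as in rescue. Of the others, Tk1 had the largest log2 change at 0.44 (adjusted p = 0.23), then Dut at 0.40, Dtymk and Dck at 0.33, Samhd1 at 0.18, Tyms at 0.15 and Rrm2b at -0.06. Without any 1 of the 4 replicates, neither gene was called (adjusted p 0.0743 to 0.395) and the log2 changes were 1.00 to 1.26. In 3 of these 4 fits 0 of all genes were called, and without rescue replicate 2 there were 69 higher, so the lost calls are not particular to Rrm1 and Rrm2. The lone replicate was then taken to vary like the other group. With rescue replicate 2 taken from its technical repeat alone, which leaves out the library of higher background and was chosen after the data were seen, both stayed called (adjusted p = 0.0389 for Rrm1 and 0.0316 for Rrm2).

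In the exon 4 clone, 0 of 9 members were called by limma, as were 0 of all 18751 genes tested (0.0% higher and 0.0% lower). Lin37 itself was not called there, with a log2 change of -1.84 (limma adjusted p = 0.167). The lack of calls in this clone is thus not particular to the members. At an unadjusted p under 0.05 there were 768 genes, or 4.1% of all tested. Among them was 1 of the 9 members, Rrm1, with a log2 change of 0.69 (95% interval 0.14 to 1.23). The means of Rrm2 differed by a ratio of 2.52 (log2 change 0.40, 95% interval -0.14 to 0.94). Samhd1 had 0.40 (95% interval -0.04 to 0.84), while Tk1 (-0.06), Tyms (-0.12), Dut (-0.24), Dtymk (-0.25) and Rrm2b (-0.07) were negative. After quantile normalization Tyms, Tk1 and Rrm2b were positive, at 0.025, 0.11 and 0.083, while Dut and Dtymk stayed at -0.24 and -0.25. In the RPKM as deposited, where the median of all genes in this clone moved from -0.08 to 0.57, all 5 were positive and lay below that median.

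**Figure D3:**
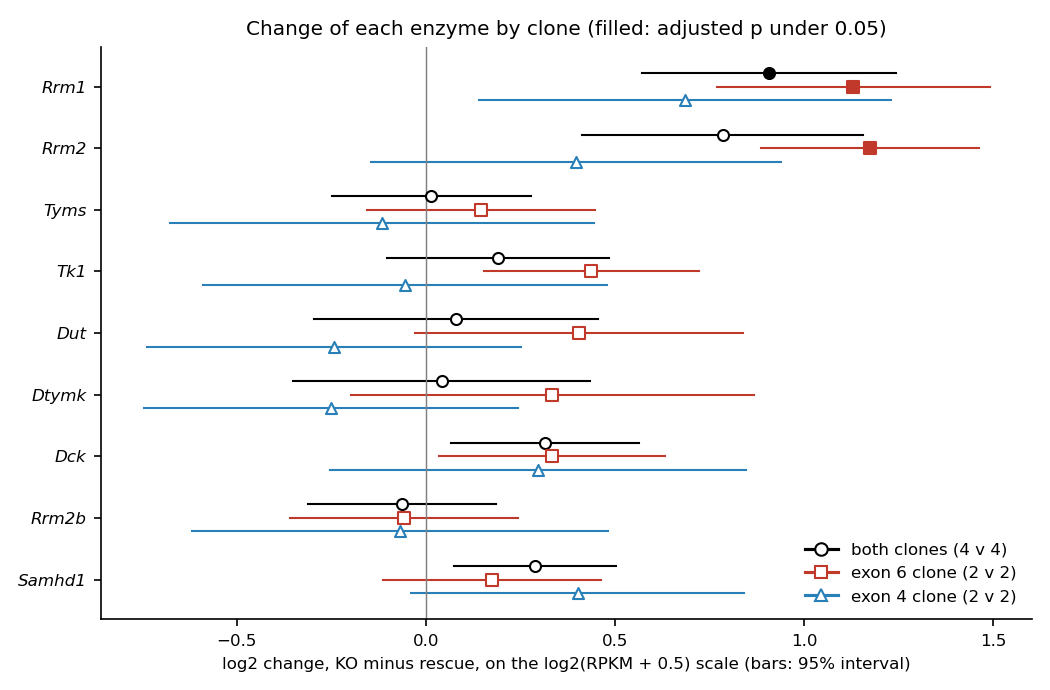
Log2 change of each enzyme, KO minus rescue, with its 95% interval, over both clones (black circles, 4 against 4), in the exon 6 clone (red squares, 2 against 2) and for exon 4 alone (blue triangles, 2 against 2). Filled symbols have an adjusted p under 0.05 and are those of Rrm1 over both clones and of Rrm1 and Rrm2 in the exon 6 clone.

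The difference between the clones was tested as the interaction of clone and genotype. By limma 0 of 9 members and 0.0% of 16866 genes were called in either direction. At an unadjusted p under 0.05 there were 685 genes, or 4.06% of all tested, and 3 of them were members. The change of Rrm2 was larger in the exon 6 clone by 0.78 (SE 0.196, unadjusted p = 0.00498, adjusted p = 0.997), that of Dut by 0.65 (95% interval 0.04 to 1.25) and that of Tk1 by 0.49 (95% interval 0.02 to 0.96). For Rrm1 the difference was 0.45 (95% interval -0.18 to 1.07) and for Samhd1 -0.23 (95% interval -0.64 to 0.19). The clones also differed in the rescue level of Lin37, and the part of that level in these differences was not tested.

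The S-phase enzymes were set against the other enzymes in 2 ways. By role, the 6 S-phase enzymes had a median log2 change of 0.14 over both clones, 0.42 in exon 6 cells and -0.09 in exon 4 cells. The medians of Rrm2b and Samhd1 were 0.11, 0.06 and 0.17, beside -0.03, 0.00042 and -0.08 over all genes. Among the 6 S-phase enzymes, 1 was called over both clones and 2 in the exon 6 clone, and of the other 3 genes none was called. Of all genes tested, 1.61% were called higher over both clones and 1.24% in the exon 6 clone. With 6 and 3 genes these counts cannot show a difference between the roles.

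As ratios within a replicate, log2 values with 0.5 RPKM added to each gene were compared by an exact two-sided permutation test. It ran over all 70 splits of 8 replicates, and its smallest possible p is 0.0286. The splits took no account of clone, so a difference between the clones counts as spread in this test. The ratio of Rrm2 to Rrm2b, the reductase's S-phase subunit over its alternative, was -0.01 and -0.20 in the exon 4 KO and -0.54 and -0.60 in the exon 4 rescue replicates. Exon 6 values were 1.09 and 1.25 for KO and 0.05 and -0.18 for rescue. It was higher in KO in 4 of 4 pairs, and within each clone the groups did not overlap, but the exon 4 KO overlapped the exon 6 rescue. The mean difference was 0.85 (exact permutation p = 0.143, and 0.214 adjusted over 3 ratios).

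The ratio of Tyms to Samhd1 lay between -1.54 and -1.12 in KO and between -1.28 and -0.82 in rescue, a difference of -0.27 (exact permutation p = 0.0857, adjusted 0.214). The added 0.5 RPKM exceeds every level of Tyms and Tk1 and shrinks these ratios. Without it, the plain ratio of Tyms to Samhd1 was 0.173 and 0.105 in the exon 4 KO and 0.213 and 0.328 in the exon 4 rescue replicates. In exon 6 cells it was 0.137 and 0.203 for KO and 0.115 and 0.148 for rescue, so its direction differed by clone. The ratio of Tk1 to Dck lay between -0.63 and -0.38 in KO and between -0.60 and -0.01 in rescue, a difference of -0.12 (exact permutation p = 0.457). As a plain ratio, Tk1 to Dck was 0.389 and 0.498 in the exon 4 KO and 0.990 and 0.570 in the exon 4 rescue replicates. Exon 6 cells had 0.530 and 0.561 as KO and 0.348 and 0.275 as rescue, again with opposite directions in the clones. No test of the plain ratios was made. None of the 3 ratios passed the threshold. A paired sign-flip test over 4 pairs cannot give a two-sided p under 0.125. Its exact p was 0.125 for Rrm2 to Rrm2b, the smallest it can give, 0.25 for Tyms to Samhd1 and 0.75 for Tk1 to Dck.

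**Figure D4:**
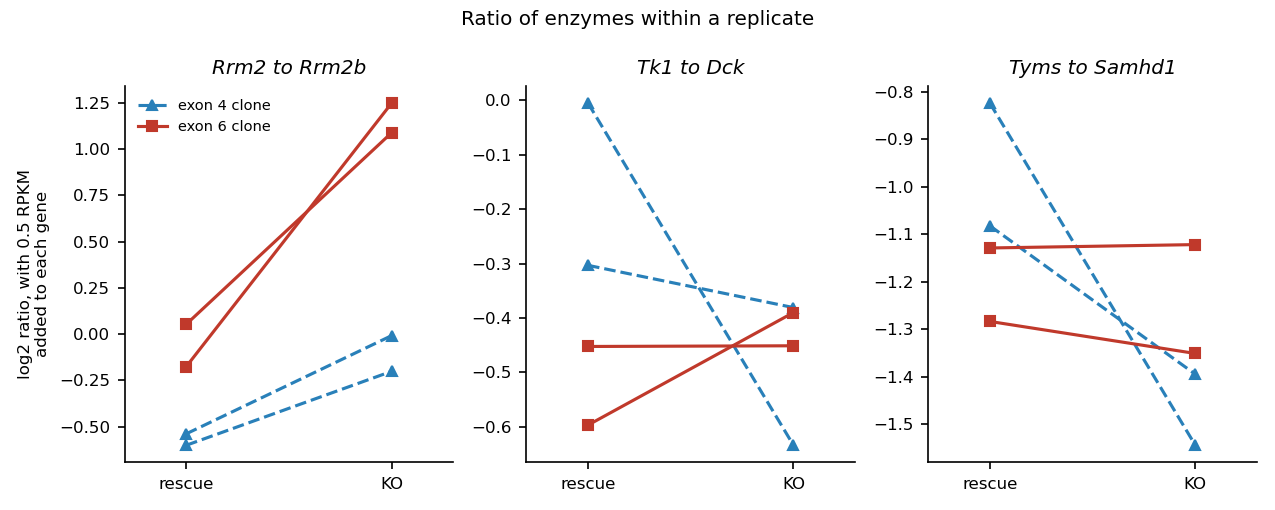
Log2 ratio of 2 enzymes within a replicate, with 0.5 RPKM added to each, in rescue and KO, where lines join replicates with the same number in the exon 4 clone (blue, dashed) and the exon 6 clone (red). The ratio of Rrm2 to Rrm2b rises along all 4 lines, from between -0.60 and 0.05 to between -0.20 and 1.25, and the other ratios do not rise along all lines.

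The other genes of nucleotide metabolism and of the cell cycle were taken by lists. Of 11 genes of the thymidylate cycle and folate, 0 were called over both clones and 2 had an unadjusted p under 0.05, and the median log2 change was 0.11. Shmt1, the serine hydroxymethyltransferase that feeds one-carbon units to Tyms, averaged 1.05 ± 0.103 RPKM in KO against 0.568 ± 0.145 RPKM in rescue (SD, n = 4), with a log2 change of 0.54 (limma adjusted p = 0.0660). Its mitochondrial counterpart Shmt2 had 0.35 (adjusted p = 0.582). Of 20 salvage and nucleotide kinase genes tested, 0 were called and 3 had an unadjusted p under 0.05, with a median of 0.01. Nme4, a mitochondrial nucleoside diphosphate kinase, had -0.46 (adjusted p = 0.0622), and Nme2, its cytosolic relative, had -0.40 (adjusted p = 0.754).

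Of 12 genes of pool sanitation and breakdown tested, 0 were called and 0 had an unadjusted p under 0.05. Their median was -0.01, with Dctpp1, a dCTP pyrophosphatase, at 0.30 (limma adjusted p = 0.779) and Nt5m, a mitochondrial nucleotidase, at -0.22 (adjusted p = 0.656). Of 17 genes of de novo purine and pyrimidine synthesis, 0 were called, 1 had an unadjusted p under 0.05, and the median was 0.02. Ppat, which commits to purine synthesis, had 0.25 (adjusted p = 0.696), and Cad, which starts pyrimidine synthesis, had -0.24 (adjusted p = 0.540). Of 15 p53 targets tested, 0 were called, 1 had an unadjusted p under 0.05, and the median was 0.08. Btg2 had 0.50 (adjusted p = 0.391) and Phlda3 -0.29 (adjusted p = 0.733).

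Most genes listed as markers of cycling cells were higher in KO, as were Rrm1 and Rrm2. Of 10 such genes, 7 were called higher and 0 lower over both clones, with a median of 1.15, and 5 in the exon 6 clone. The largest log2 changes were those of Top2a (2.01), the topoisomerase of mitotic chromosomes, Ccna2 (1.58), Cdk1 (1.47), Birc5 (1.32), the replication helicase subunit Mcm3 (1.17) and the proliferation marker Mki67 (1.13). The 3 not called, named after their values were seen, were Pcna (0.44), Ccne1 (0.61) and Ccne2 (-0.14). The summed level of the 10 genes was 17.2 to 17.7 RPKM in the exon 4 KO, 18.9 to 21.5 RPKM in the exon 6 KO, 5.09 to 6.08 RPKM in the exon 4 rescue and 5.19 to 6.35 RPKM in the exon 6 rescue. In the exon 4 clone 0 of the 10 passed limma's adjusted threshold and 7 had an unadjusted p under 0.05, with a median of 1.05, while the 6 S-phase enzymes had a median of -0.09 there. The part of the cycling share in the change of Rrm1 and Rrm2 was not tested.

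**Figure D5:**
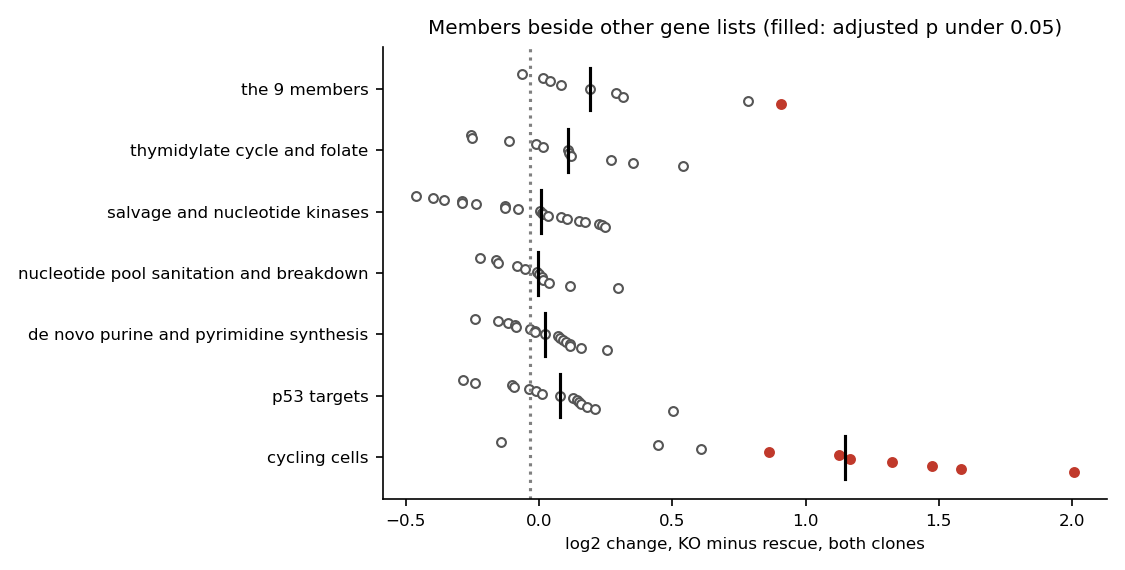
Log2 change over both clones, KO minus rescue, of each gene (circles) of the 9 members and of 6 other lists, with the median of a list as a black line and the median of all genes, -0.03, as a dotted line. Filled circles have an adjusted p under 0.05, 1 among the members and 7 among the genes of cycling cells, whose median is 1.15 beside 0.19 for the members.

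As a description of which genes were most like Rrm2 and Rrm2b, Pearson's r of log2(RPKM + 0.5) was taken over the 8 replicates for 6060 protein-coding genes of at least 1 RPKM. The replicates share 2 clones and their scaling, so r follows differences of clone as well as of genotype. For Rrm2 the 5 highest were Csrp1 (0.97), Ulbp1 (0.97), Pold2 (0.96), Ahctf1 (0.96) and Agfg2 (0.94), and mean RPKM was higher in KO in each, for example 3.20 against 2.18 for the polymerase delta subunit Pold2. For Rrm2b they were Klhdc2 (0.97), Nedd4 (0.97), Ppm1a (0.97), Avl9 (0.97) and Zfp644 (0.96), with a mean lower in KO in each, for example 1.85 against 1.95 RPKM for Klhdc2 and 3.83 against 3.86 RPKM for Ppm1a. All these genes were picked by r over the same replicates, so the direction they share with Rrm2 or Rrm2b is not independent of the choice.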

How the data were processed

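Ribosomal RNA was depleted and the 10 libraries were made with the Nugen Ovation Human FFPE kit. After clipping with cutadapt 1.8.3, the authors mapped reads to mm10 with segemehl 0-2-0, counted them per gene with rnacounter 1-5-2 against GENCODE vM5, and deposited RPKM values (library total not stated). The deposited values hold no counts, and whole reads could not be recovered from them (28.1% to 39.7% of low values came out whole within 0.05 reads), so depth is known only as an estimate of 21716309 to 91269939 reads per library if the commonest step is 1 read, and no counting error is given.

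Gene names and positions are from GENCODE M21 on GRCm38 (44585 of 45232 identifiers). Libraries were put on 1 scale by the median of their ratios to a mean library over 8523 genes of at least 1 RPKM, with factors of 0.324 to 2.70, higher in KO than in rescue in every pair. Technical replicates were averaged. Genes of at least 0.1 RPKM on average were tested on log2(RPKM + 0.5) with limma 3.58.1 in R 4.3.3 (trend, clone as a covariate, Benjamini-Hochberg adjustment over all genes, threshold 0.05). The procedure was run on simulated data without a clone effect, where only genes of at least 1 RPKM were changed. Of 100 genes changed by 1 on the log2 scale, 93 were recovered over both clones, 39 in the exon 6 and 43 in the exon 4 clone. Of 100 changed by 2, these numbers were 100, 99 and 100. Unchanged genes called were 9 over both clones, 0 in the exon 6 and 7 in the exon 4 clone. Every simulated gene had independent noise of the same SD, which the data need not have. In the exon 4 data Lin37 itself, at a log2 change of -1.84, was not called (limma adjusted p = 0.167). The recovered numbers are thus not the power of the fits to the data. Most members lie below the levels simulated. Python 3.11.15 was used for the rest. KO and rescue share replicate numbers in the sample titles, and deviations of same-numbered replicates correlated at 0.48 in the exon 4 and 0.36 in the exon 6 clone over 7550 genes, so a replicate block was added to every comparison as an alternative. The members, gene lists and tests were chosen with earlier results of these data known. Named in other lists were the called genes with the largest change (at most 6), or else the 2 genes with the largest change, and for likeness the 5 genes with the highest correlation. Other pseudocounts, minimum levels, scalings, replicates left out, technical replicates kept apart, no trend and no clone covariate were tried.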

Additional observations from a re-analysis of the deposited data

Results flagged for a closer look

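The S-phase enzymes Tk1, Dut and Dtymk moved in opposite directions in the clones, with KO below rescue in both pairs of the exon 4 clone and above it in both pairs of the exon 6 clone. In the exon 4 clone the pair changes of Tk1 were only -0.089 and -0.022, and its KO and rescue replicates overlapped. The share of all genes with this pattern was not counted. The change of Tk1 was larger in the exon 6 clone by 0.49 on the log2 scale, that of Dut by 0.65 and that of Dtymk by 0.59. By limma's interaction none of these differences was called over all genes (adjusted p = 0.997 for each). After quantile normalization the exon 4 change of Tk1 was 0.11, while Dut and Dtymk stayed at -0.24 and -0.25. With the olfactory receptor level subtracted that of Tk1 was 0.0097, while Dut and Dtymk had -0.22 and -0.23. In the RPKM as deposited the exon 4 changes were 0.29 for Tk1, 0.48 for Dut and 0.46 for Dtymk, all below the median of 0.57 over all genes there. No level of a member and none of the 3 ratios had a replicate far from the other 3 of its group by Dixon's test.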

How the results depend on the processing

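Over both clones, the members called higher, 1 in the main analysis (Rrm1), were 2 (Rrm1 and Rrm2) with a pseudocount of 0.1, quantile normalization, technical replicates as separate libraries, or the olfactory receptor level subtracted, 3 with Dck added in the RPKM as deposited, and 0 with no minimum level. Leaving out 1 replicate gave 0 to 2, with 2 without exon 4 KO replicate 1 and 0 without exon 4 KO replicate 2 or any 1 of the 4 exon 6 replicates. In the exon 6 clone, 2 members were called in the main analysis, 0 with no minimum level, 1 of at least 1 RPKM (Rrm1), 7 in the RPKM as deposited, and 0 without any 1 replicate. With no minimum level, and in 3 of the 4 fits without 1 replicate, 0 of all genes were called in this clone, so those counts of 0 are not particular to the members. There 10040 in place of 189 genes were called higher in the RPKM as deposited. Over both clones all genes called higher were 271 in the main analysis, 155 with no minimum, 93 of at least 1 RPKM and 875 as deposited.

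With the replicate block the log2 changes stay and 1 member was called over both clones (Rrm1, limma adjusted p = 0.0183), 2 in the exon 6 clone (adjusted p = 0.0336 for Rrm1 and 0.0443 for Rrm2) and 0 in the exon 4 clone. The block changed no other member's call. In every setting run, 0 members were called lower in KO, 0 in the exon 4 clone and 0 by the interaction. The mean differences of the 3 ratios kept their direction in all settings run, each of which added a pseudocount, and none passed the threshold. The sign-flip test over 4 pairs could not pass it, its smallest p being 0.125.

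Changes near 0 turned in sign. The RPKM as deposited move the median of all genes to 0.64 over both clones, 0.69 in exon 6 and 0.57 in exon 4, and the changes that turned there all lie below it: Rrm2b became 0.34 over both clones, 0.36 in exon 6 and 0.32 in exon 4, and in exon 4 Tyms became 0.27, Tk1 0.29, Dut 0.48 and Dtymk 0.46. After quantile normalization the exon 4 changes of Tyms, Tk1 and Rrm2b became 0.025, 0.11 and 0.083, and with the olfactory receptor level subtracted that of Tk1 became 0.0097. Over leave-one-out fits the changes over both clones ran from -0.033 to 0.087 for Tyms, -0.14 to 0.012 for Rrm2b, -0.070 to 0.21 for Dut and -0.11 to 0.16 for Dtymk, and in exon 4 from -0.25 to 0.11 for Rrm2b and -0.14 to 0.033 for Tk1. The cause of the turns other than those as deposited was not tested.

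Most members lie under 1 RPKM, each clone has 2 replicates a group, and the signs of Tyms, Tk1 and Rrm2b in exon 4 differ between the median of ratios and quantile normalization.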
